A study of Homo sapiens with 6 samples.

Results

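The libraries of set S were compared with those of set F across all genotypes of H1-derived cells collected at day 8 of hematopoietic differentiation. H1 is an established human embryonic stem cell line. The members were the 6 libraries of the series, 3 in set F (the libraries numbered replicate 1) and 3 in set S (replicate 2), and they were paired by line, with 1 pair of unedited wild-type (WT) cells and 1 pair for each of 2 MSX2-/- clones. The labels give the set letters without saying what they stand for, so a set could be a culture, a collection or a sequencing run, and these cannot be told apart. Of 58364 genes with values in the table, the comparison took the 15895 whose mean across the libraries reached 0.5 FPKM.

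All 6 libraries came from the same day 8 of a chemically defined induction with activin A and BMP4 followed by VEGF and bFGF, as far as the labels state it. The MSX2-/- lines are single-cell clones made with a lentiviral Cas9 vector and a guide to exon 2 of MSX2 under puromycin selection, and each is 1 clone, so a genotype effect and a clone effect cannot be separated beyond these 2 clones. The clones are called clone 1 and clone 2 here after the columns of the table, since the labels number them differently. The study describes CD31+ cells for both genotypes, while the labels name them for the MSX2-/- libraries only, and the growth protocol in the labels also speaks of HAND1 overexpression. FPKM (fragments scaled to transcript length and to the mapped fragments of the library) is a level per transcript length, and the authors' table has 1 column per library and no read counts.

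At this stage of differentiation, hemogenic endothelial cells lose endothelial identity and turn into blood progenitors, a step known as the endothelial-to-hematopoietic transition. RUNX1, GATA2 and the TAL1 complex are known to drive it, and Notch signalling and SOX17 maintain arterial and hemogenic endothelium before it. Cells that grow and divide quickly make new ribosomes, which takes RNA polymerase I, the nucleolar proteins that process ribosomal RNA, and MYC, the factor best known for raising these genes. Growth arrest runs the other way through p53 and its target CDKN1A, an inhibitor of cyclin-dependent kinases, while the unfolded protein response raises chaperones when secreted proteins accumulate in the endoplasmic reticulum.

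Endothelial markers were high and the leukocyte marker was near 0 in every library. PECAM1, which encodes CD31, had 258, 208 and 186 FPKM in set F (WT, clone 1 and clone 2, the order kept throughout) and 218, 209 and 230 FPKM in set S. CDH5, the cadherin of endothelial junctions, lay between 230 and 423 FPKM, and PTPRC, which encodes the pan-leukocyte antigen CD45, did not pass 0.115 FPKM in any library. Transcripts of MSX2, which the guide targeted, were at 3.64, 18.0 and 31.8 FPKM in set F and 1.44, 5.62 and 6.69 FPKM in set S. Its mRNA was higher in the libraries labelled MSX2-/- in both sets, so it does not check the genotype labels, and it fell in set S by 1.51 on the log2(FPKM + 1) scale (SE 0.23, limma adjusted p = 0.0104). Summed FPKM ran from 555286 to 617120 per library, and the depth estimated from low values from 1.0 to 1.18 times that of WT in set F, with both sets spread over this range. Set S had fewer genes at 1 FPKM or more (13366 to 13664 against 13870 to 14222 in set F) and a lower share of FPKM in mitochondrial transcripts (4.79 to 5.11% against 5.5 to 5.92%), and the part of these in the results below was not tested.

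Libraries stood apart for genes of other tissues. The 207 immunoglobulin genes of the annotation, which are made by B and plasma cells, summed to 223 FPKM in WT of set F, to 52.0 and 39.6 FPKM in the clones of set F, and to 19.8, 43.7 and 1.02 FPKM in set S. A list of 26 genes of adult liver, written after the values were seen, summed to 126, 422 and 56.3 FPKM in set F and to 157, 433 and 2.08 FPKM in set S. Both sums were lowest in clone 2 of set S, where ALB, the most abundant plasma protein, was listed at 0 against 122 and 125 FPKM in the 2 libraries of clone 1. Of the 26 liver genes tested, 0 were called between the sets by limma, and of the 26 immunoglobulin genes tested, 6 were lower in set S. Immunoglobulin genes share reads between near-identical copies, and the part of both lists in other results was not tested.

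**Figure D1:**
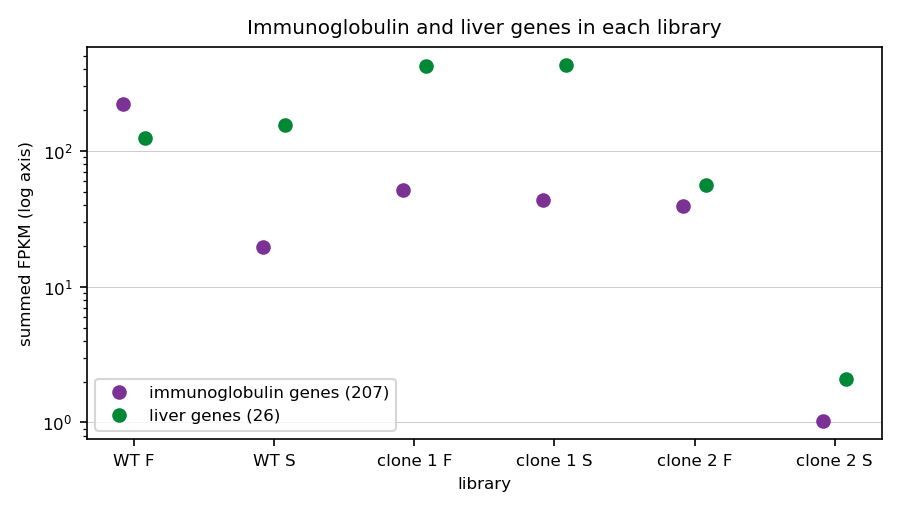
Summed FPKM (log axis) of 207 immunoglobulin genes and 26 liver genes in each of the 6 libraries, 1 point per list and library. The immunoglobulin sum is highest in WT of set F (223 FPKM), the liver sum in the 2 libraries of clone 1 (422 and 433 FPKM), and both are lowest in clone 2 of set S (1.02 and 2.08 FPKM).

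Differences between the sets were tested with limma on log2(FPKM + 1), with the line as a block, and all log2 values below are set S minus set F on that scale, where a change at low FPKM appears smaller than it is. At an adjusted p under 0.05, 1983 genes were higher (12.5% of those tested) and 2458 were lower (15.5%) in set S. After correction for base composition and length, 2608 were higher and 2097 lower, so that the higher genes made up 55.4% of the calls in place of 44.7%. The count rests on the filter and on the pairs of both clones: without a filter on low FPKM 0 genes passed, with 7366 at an unadjusted p under 0.05 and a smallest adjusted p of 0.0549 over 30029 genes, and without the pair of clone 1 or of clone 2, 176 and 309 genes were higher and 205 and 413 lower. Without the WT pair, 1498 were higher and 1854 lower. Leaving out a pair keeps 1 residual degree of freedom. All 4441 called genes had the same sign in WT, clone 1 and clone 2, which the paired call itself favours. Among all 15895 genes tested, 4545 were higher in set S in all 3 lines and 5378 were lower. All 3 libraries of set S were above all 3 of set F for 2988 genes (18.8%) and below them for 3608 genes (22.7%). With the pairing set aside, 3 libraries against 3 cannot reach an exact permutation p below 0.1, and swaps within pairs have a higher limit.

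The median absolute difference between sets was larger than that between genotypes or clones, while the counts of large differences depended on direction. The median absolute log2 difference between S and F was 0.298 in WT, 0.309 in clone 1 and 0.357 in clone 2. Between clone 2 and clone 1 within a set it was 0.138 in F and 0.13 in S, and between a clone and WT of the same set it ran from 0.225 to 0.239. Genes above a log2 difference of 1 numbered 437, 379 and 487 between S and F in WT, clone 1 and clone 2. Between clone 1 or clone 2 and WT they numbered 694 and 711 in set F and 533 and 500 in set S. Genes below -1 numbered 669, 707 and 1184 between S and F, and at most 366 between a clone and WT. These values describe single pairs of libraries and were not tested against each other.

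The genes were grouped into 39 lists by function or cell type, shown by their medians and by their shares of called members, and each list is read against the 12.5% of all genes higher and the 15.5% lower. Counts of members whose libraries did not overlap between the sets are read against 18.8% of all genes above and 22.7% below. The median of all genes was -0.03. Lists were described by counts and medians with no set test.

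**Figure D2:**
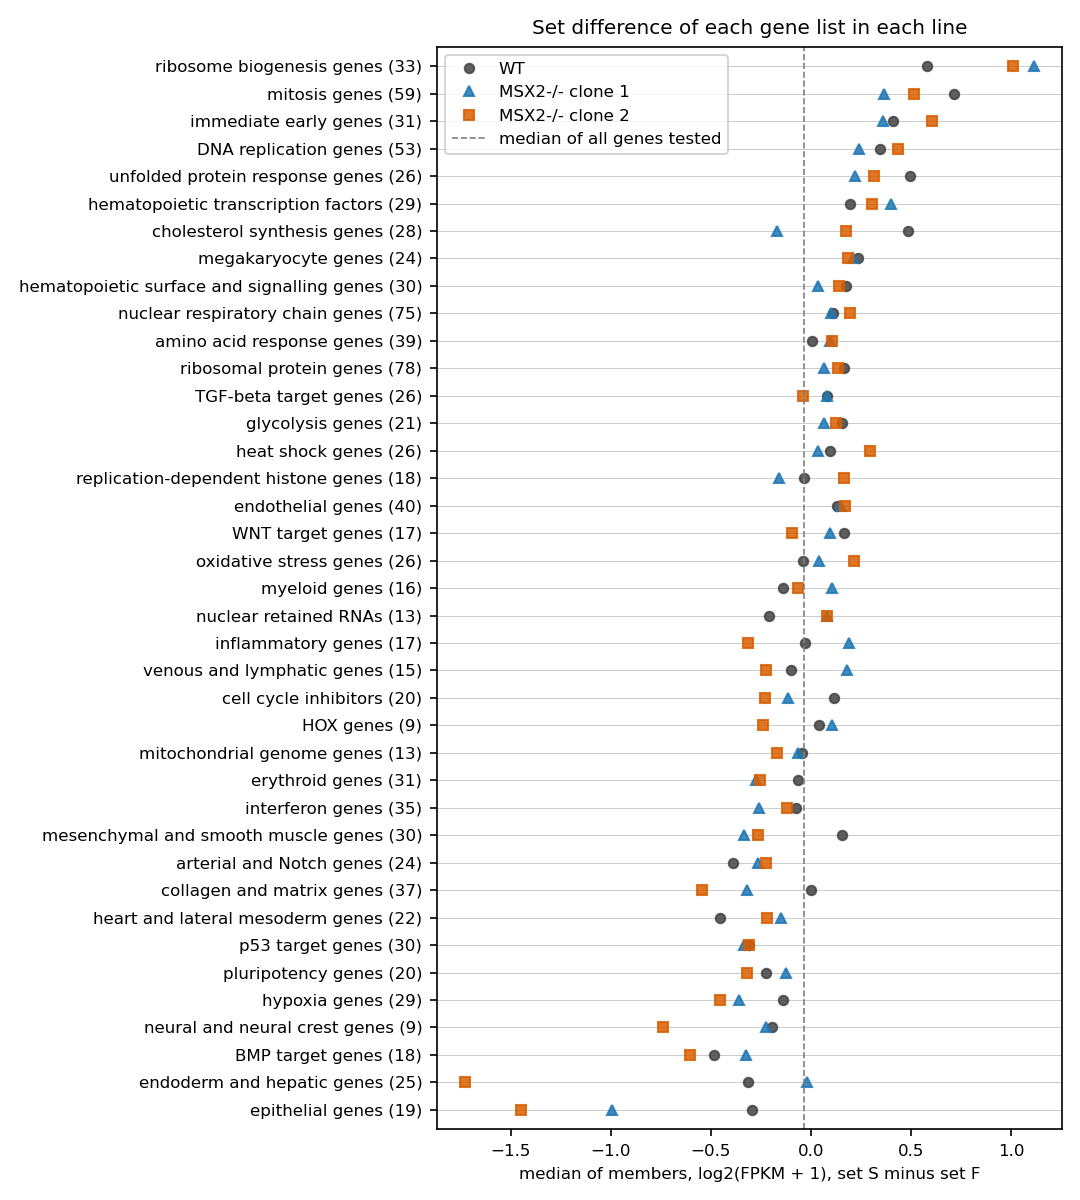
Median log2(FPKM + 1) difference, set S minus set F, of each gene list (number of members tested in parentheses) in WT, clone 1 and clone 2, with the median of all genes tested dashed. Ribosome biogenesis genes lie highest in both clones (1.11 and 1.01) and at 0.58 in WT, and epithelial genes lie at -0.29 in WT, -0.99 in clone 1 and -1.45 in clone 2.

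**Figure D3:**
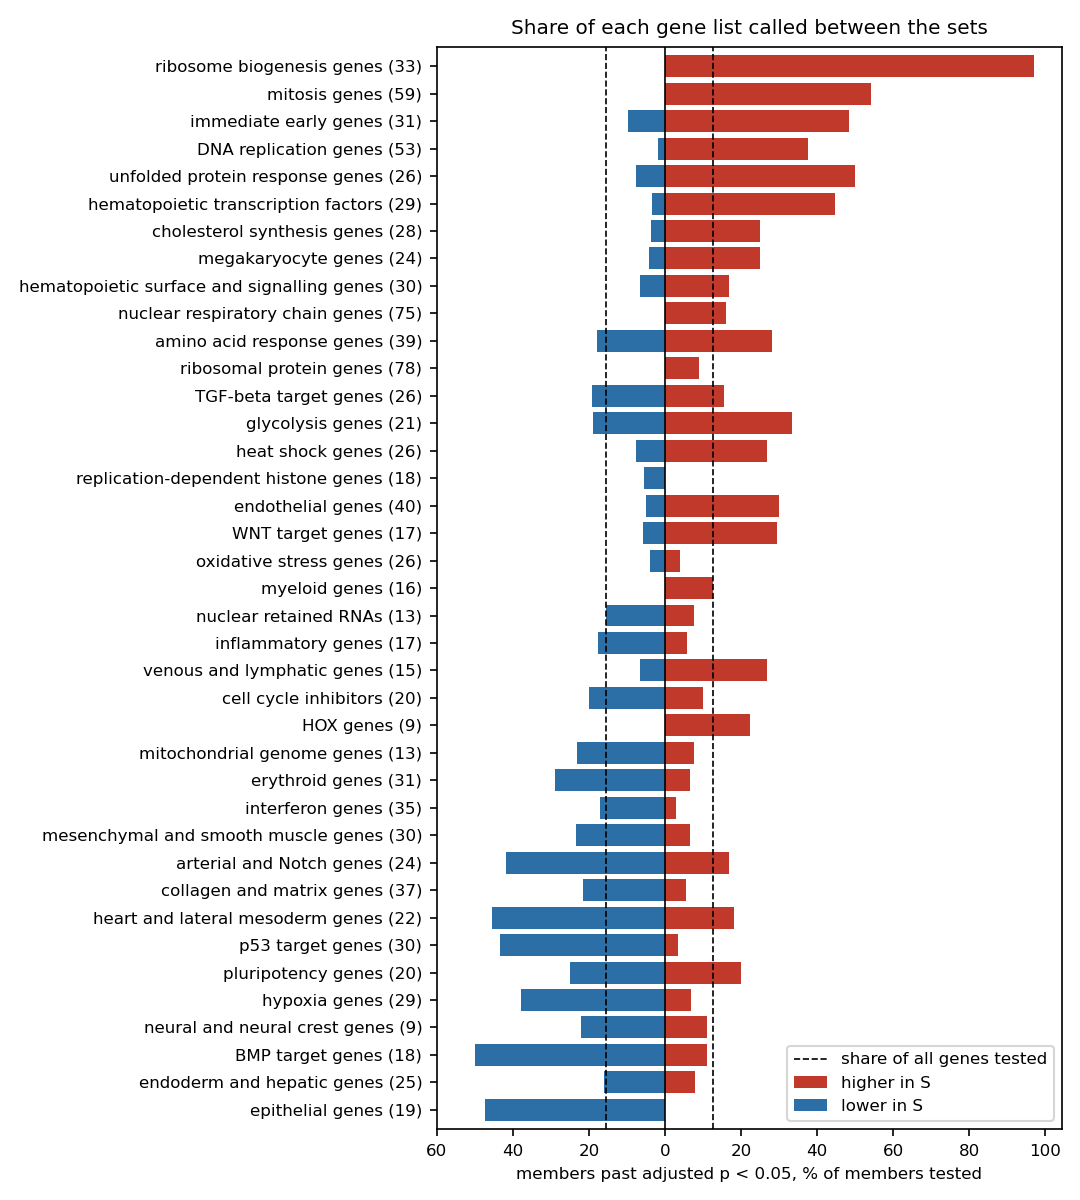
Percentage of the tested members of each list that were higher (right) or lower (left) in set S at a limma adjusted p under 0.05, with the shares of all genes tested dashed (12.5% higher and 15.5% lower). Ribosome biogenesis (97.0% higher), mitosis (54.2% higher) and BMP target genes (50.0% lower) lie far from the dashed lines.

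Among called genes whose mean reached 5 FPKM and whose libraries did not overlap between sets, the highest log2 difference belonged to ISM1, which encodes the secreted protein isthmin. ISM1 had 1.28, 5.87 and 4.0 FPKM in set F and 10.7, 30.04 and 34.2 FPKM in set S, a log2 difference of 2.45 (SE 0.15, limma adjusted p = 0.00329). DKK2, a secreted modulator of WNT signalling, had 0.463, 2.04 and 2.33 FPKM in set F and 5.24, 15.7 and 16.8 FPKM in set S. Every library of set S was above every library of set F for both genes, although WT was the lowest line in each set. HS3ST1, which sulfates heparan sulfate, followed with a log2 difference of 2.23 and PTPN7, a tyrosine phosphatase of blood cells, with 2.18. FAM84A (1.85), ETV2, SUSD4 (1.82), TFPI2 (1.82) and SFPQ completed the 10 genes with the largest rise together with SRSF3. ETV2, the ETS factor that starts the endothelial and blood programme in mesoderm, had 1.56, 2.06 and 2.46 FPKM in set F and 5.82, 12.2 and 12.3 FPKM in set S (log2 difference 1.82, SE 0.17, limma adjusted p = 0.00462).

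The largest fall was that of PRND, which encodes doppel, a prion-like protein of endothelium. PRND had 29.99, 3.08 and 6.54 FPKM in set F and 1.84, 0.255 and 0.175 FPKM in set S, a log2 difference of -2.61 (SE 0.33, limma adjusted p = 0.0071). ACKR3, the scavenger receptor for the chemokine CXCL12, had 31.4, 7.71 and 14.5 FPKM in set F and 4.17, 2.25 and 1.23 FPKM in set S. In both genes the spread between lines within set F was wide, with WT highest, and the sets still did not overlap. CHST1 (-2.29), NYAP1 (-2.19), the intracellular growth factor homologue FGF11 (-2.18), the ephrin EFNA3 (-2.12), the ESCRT subunit VPS37D (-2.09), the ephrin receptor EPHB3 (-2.01) and C19orf66 (-1.96) also fell. The 10th gene was the immunoglobulin gene IGLC2 (-2.05, limma adjusted p = 0.0409), with 24.8 FPKM in WT of set F, at most 6.18 FPKM in the other 5 libraries and 0 listed in clone 2 of set S.

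**Figure D4:**
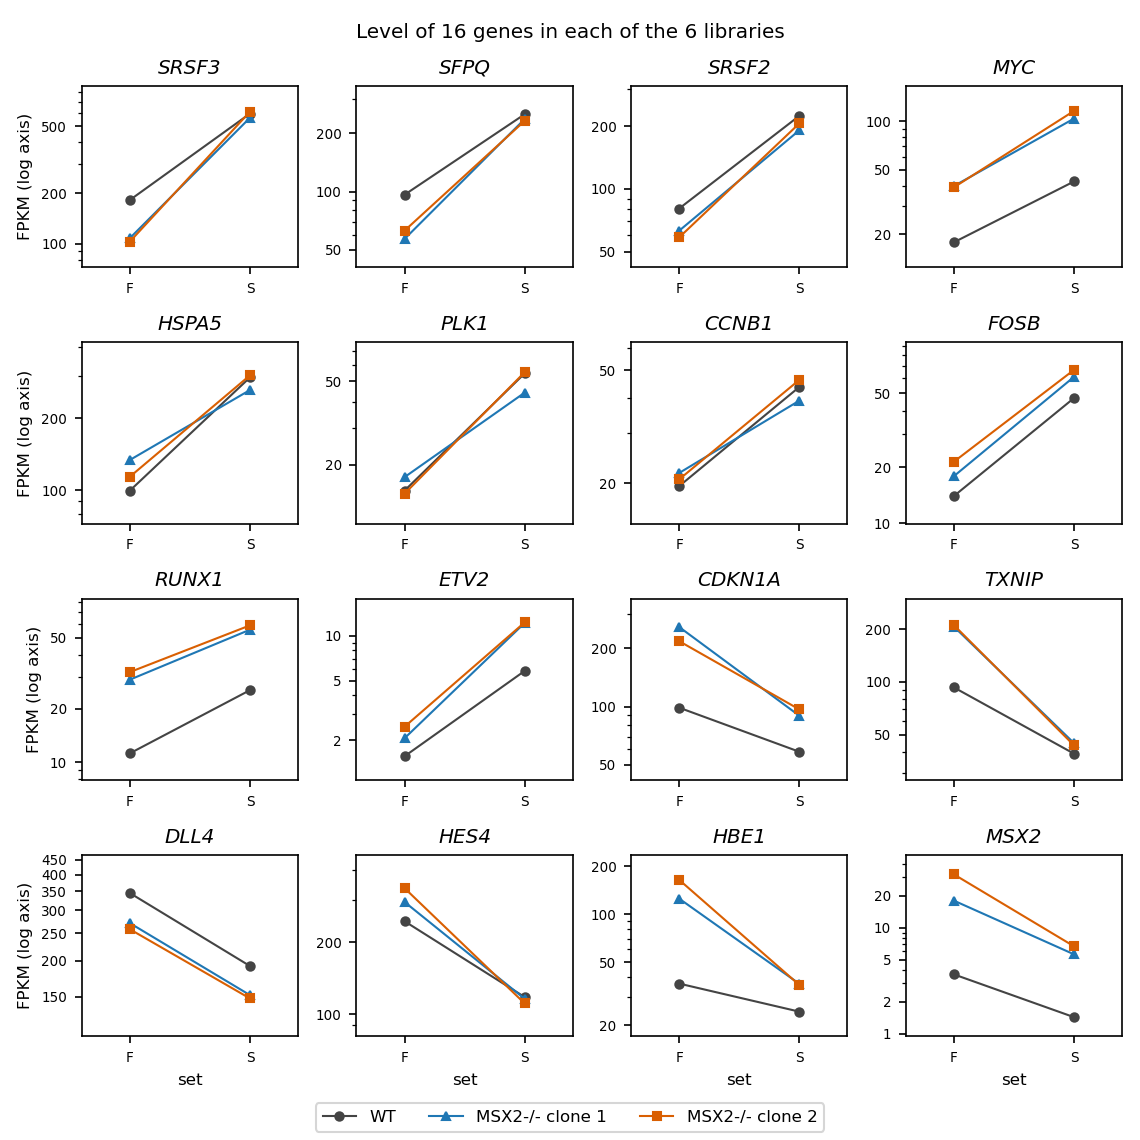
FPKM (log axes) of 16 genes in each library, with a line joining set F and set S of WT, clone 1 and clone 2. SRSF3, SFPQ, SRSF2, MYC, HSPA5, PLK1, CCNB1, FOSB, RUNX1 and ETV2 rise and CDKN1A, TXNIP, DLL4, HES4, HBE1 and MSX2 fall in all 3 lines, and RUNX1 and MSX2 overlap between the sets because the lines differ in level.

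Ribosome biogenesis genes formed the list with the largest share of called members. Of 33 members tested, 32 rose and 0 fell, against 12.5% and 15.5% of all genes. In 30 of them all libraries of set S were above all of set F, against 18.8% of all genes. The median log2 difference was 0.93, with 0.58 in WT, 1.11 in clone 1 and 1.01 in clone 2. The summed level of the list ran from 1159 to 1337 FPKM in set F and from 1595 to 2272 FPKM in set S. The 1 member that did not pass was NHP2, a protein of box H/ACA snoRNPs. With 1 pair fewer, 2 members passed without clone 1, 11 without clone 2 and 30 without WT.

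RRP9, a protein of the U3 snoRNP that cuts ribosomal RNA precursors, had 14.0, 13.8 and 13.6 FPKM in set F and 26.9, 33.5 and 35.7 FPKM in set S, a log2 difference of 1.15 (SE 0.12, limma adjusted p = 0.00487). PPAN, which acts in large subunit assembly, had 21.3, 21.3 and 25.4 FPKM in set F and 37.8, 49.0 and 52.2 FPKM in set S. GNL3, the nucleolar GTPase nucleostemin, had 21.6, 24.3 and 30.4 FPKM in set F and 40.6, 64.5 and 64.9 FPKM in set S. The sets did not overlap for these 3 genes, and within set S all 3 were lowest in WT. MYBBP1A had the largest log2 difference of the list (1.43), followed by the box C/D snoRNP core protein NOP58 (1.33), and the abundant nucleolar proteins NPM1 (0.35) and FBL (0.25) had the smallest among those that passed. The RNA polymerase I subunits POLR1A (0.72), POLR1B (0.67) and POLR1C (0.59) rose as well.

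In 30 of the 33 members the difference was smaller in WT than in either clone. A test of the clones against WT gave an unadjusted p under 0.05 for 10 of these members in limma, and the smallest adjusted p was 0.513, so no member passed. The clones also differ from WT in level, and both clones are compared through the same pair of WT libraries.

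MYC itself had 17.8, 39.7 and 39.0 FPKM in set F and 42.4, 104 and 116 FPKM in set S, a log2 difference of 1.37 (SE 0.092, limma adjusted p = 0.00329). WT of set S lay just above the clones of set F, so the sets did not overlap, and each line rose. Its relative MYCN (0.66) rose too, while the MYC antagonists MXI1 (-0.49) and MXD4 (-0.32) fell, so that of 9 genes of the MYC network 2 rose and 2 fell. Ribosomal protein genes, which encode the finished ribosome rather than its assembly factors, moved little: of 78, 7 rose and 0 fell, with a median of 0.12, and the largest rise among the 7 was that of RPS26 (0.32).

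Genes for the building blocks of growth were looked at after the list results were seen. Of 14 polyamine and methionine genes, 6 rose and 2 fell. ODC1, the first enzyme of polyamine synthesis, had 3.42, 9.6 and 7.68 FPKM in set F and 9.47, 19.9 and 24.5 FPKM in set S (log2 difference 1.26, limma adjusted p = 0.00574). MAT2A, which makes S-adenosylmethionine, rose by 1.61 and SRM, spermidine synthase, by 1.19. SAT1, which marks polyamines for export, fell from 105, 83.0 and 100.3 FPKM to 21.9, 34.6 and 32.7 FPKM (log2 difference -1.68, limma adjusted p = 0.00564), and OAZ2, an antizyme that directs ODC1 to degradation, fell by 1.26. In these named members, picked by lowest p, synthesis enzymes were higher and the enzyme and inhibitor that lower polyamines were lower in set S. Of the 14 genes, 6 did not pass, and the median of the list was 0.20. Of 16 nucleotide synthesis genes, 9 rose, among them PFAS (0.92), CTPS1 (0.69) and NME1 (0.64), and 1 fell, PRPS2 (-0.63).

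Cell cycle genes were higher in set S. Of 59 mitosis genes, 32 rose and 0 fell. In 43 of them every library of set S was above every library of set F, against 18.8% of all genes. The median was 0.53, with 0.72 in WT, 0.37 in clone 1 and 0.51 in clone 2, and the summed level of the list ran from 622.1 to 758.7 FPKM in set F and from 1050 to 1158 FPKM in set S. PLK1, the kinase that drives entry into mitosis, had 15.01, 17.4 and 14.5 FPKM in set F and 54.5, 44.1 and 55.2 FPKM in set S, a log2 difference of 1.65 (SE 0.13, limma adjusted p = 0.00414). Without the pair of clone 1, clone 2 or WT, 9, 6 and 21 of these genes passed. CDC20, the activator of the anaphase-promoting complex, rose by 1.38 and cyclin B1, encoded by CCNB1, by 1.02. MKI67, the proliferation marker Ki-67, had 4.83, 4.46 and 4.37 FPKM in set F and 8.14, 7.43 and 7.88 FPKM in set S. Within each set the 3 lines lay close together for PLK1 and MKI67, and the sets were far apart.

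Of 53 DNA replication genes, 20 rose and 1 fell, with a median of 0.35, and 1 rose without either clone's pair and 12 without that of WT. MCM4, a subunit of the replicative helicase, had 43.7, 43.2 and 28.5 FPKM in set F and 104, 70.7 and 72.2 FPKM in set S (log2 difference 1.08, limma adjusted p = 0.00708). The clamp loader subunit RFC3 (0.97) and the helicase subunit MCM7 (0.72) also rose, and CHAF1B, a histone chaperone, fell by 0.63. Of 18 replication-dependent histone genes tested, 0 rose and 1 fell, HIST3H2A (-0.84); their mRNAs lack poly(A) tails, and 11 of the 58 listed were at 0 in all libraries.

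Among 20 cell cycle inhibitors, 2 rose and 4 fell. TXNIP, a growth-restraining arrestin that also limits glucose uptake, had 93.0, 207 and 211 FPKM in set F and 38.9, 44.7 and 43.4 FPKM in set S, a log2 difference of -1.89 (SE 0.21, limma adjusted p = 0.00564). CDKN1A had 98.7, 258 and 218 FPKM in set F and 58.4, 89.7 and 96.7 FPKM in set S (log2 difference -1.14, limma adjusted p = 0.00738). In both genes the clones of set F were well above all other libraries. BTG2, an antiproliferative gene, fell by 1.18, while CDKN2B (1.0) and BTG1 (0.36) rose.

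The promoters of these lists were searched in RefSeq (GRCh38.p14) for short motifs on both strands, over the 250 bases upstream of each start site. The hexamer TTTGAA, the core of the cell cycle homology region bound by MuvB complexes, was found in 28 of 51 mitosis promoters in the table (54.9%), against 13.6% of all 27305 promoters. The CCAAT box, bound by NF-Y, was found in 70.6% of the mitosis promoters and 33.0% of all promoters. Mitosis genes were chosen for their known function, so these shares describe the list and not the set difference. Of the 28 mitosis genes with TTTGAA, 15 rose in set S, with a median of 0.53, and of the 23 without it, 10 rose, with a median of 0.49. The promoters of PLK1 (chr16:23678639-23678888, plus strand) and CCNB1 (chr5:69166900-69167149, plus strand) are shown because both genes were among the 3 mitosis genes with the lowest p, with TTTGAA in capitals for PLK1 and the CCAAT boxes in capitals for CCNB1.
PLK1: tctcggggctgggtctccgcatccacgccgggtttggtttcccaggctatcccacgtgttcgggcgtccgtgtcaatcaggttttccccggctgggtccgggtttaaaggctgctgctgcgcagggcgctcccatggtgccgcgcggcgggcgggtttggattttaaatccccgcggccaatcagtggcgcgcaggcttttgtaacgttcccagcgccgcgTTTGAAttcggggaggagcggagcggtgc
CCNB1: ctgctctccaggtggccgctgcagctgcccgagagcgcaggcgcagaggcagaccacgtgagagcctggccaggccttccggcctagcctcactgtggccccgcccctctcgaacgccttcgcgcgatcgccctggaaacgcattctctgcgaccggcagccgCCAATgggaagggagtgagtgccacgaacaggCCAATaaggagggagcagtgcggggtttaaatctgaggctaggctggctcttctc
The motif in PLK1 begins 29 bases upstream of the start site, and the 2 CCAAT boxes of CCNB1 begin 87 and 55 bases upstream. The E-box CACGTG, the core site of MYC and MAX, was in 1 of 28 ribosome biogenesis promoters in the table (3.57%), that of UTP20, against 6.49% of all promoters, 11.3% of the promoters of genes called higher and 8.75% of those called lower. That window does not reach into introns.

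Stress genes did not move as a block. Of 26 genes of the unfolded protein response, 13 rose and 2 fell, with a median of 0.35. In 16 members every library of set S was above all of set F, against 18.8% of all genes. HSPA5, the chaperone BiP of the endoplasmic reticulum, had 99.7, 134 and 114 FPKM in set F and 297, 263 and 303 FPKM in set S, a log2 difference of 1.31 (SE 0.12, limma adjusted p = 0.00452). HERPUD1, which acts in degradation from the endoplasmic reticulum, had 18.7, 16.2 and 15.3 FPKM in set F and 52.7, 43.1 and 42.7 FPKM in set S. In this list 5 members rose without the clone 1 pair and 6 without that of clone 2. SDF2L1 (1.22) and the co-chaperone DNAJB9 (1.16) also rose, and CRELD1 (-0.59) and SEL1L3 (-0.73) fell. In WT, clone 1 and clone 2 the rise was 1.57, 0.97 and 1.4 for HSPA5 and 1.44, 1.35 and 1.42 for HERPUD1, and the sets did not overlap.

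The ER stress response element, a CCAAT box followed at a fixed spacing by CCACG, was found in 7 of 25 unfolded protein response promoters (28.0%) and in 22 of all 27305 (0.0806%). Of the 7 genes with it, 3 rose (HSPA5, CANX and XBP1), and of the 18 without it, 10 did. The promoter of HSPA5 (chr9:125241344-125241593, minus strand, written along the gene) is shown with the element in capitals, since HSPA5 had the largest rise of the 7.
HSPA5: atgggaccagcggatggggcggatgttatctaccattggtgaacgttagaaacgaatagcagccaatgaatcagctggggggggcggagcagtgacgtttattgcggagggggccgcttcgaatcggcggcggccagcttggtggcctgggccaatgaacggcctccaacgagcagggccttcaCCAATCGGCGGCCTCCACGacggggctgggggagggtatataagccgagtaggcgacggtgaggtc
The element begins 66 bases upstream of the start site. A match is a description of the sequence, and binding was not measured.

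Of 39 genes of the amino acid response, which ATF4 controls, 11 rose and 7 fell, with a median of 0.14. DDIT3, the factor CHOP, had 4.84, 3.52 and 4.6 FPKM in set F and 13.6, 10.9 and 13.4 FPKM in set S (log2 difference 1.36, limma adjusted p = 0.00414), and ATF5 (1.42) and PPP1R15A (1.23), which restores translation after stress, rose with it. DDIT4, an inhibitor of mTORC1, fell by 1.3, and the lipoprotein receptor VLDLR fell by 2.07, from 5.73, 5.09 and 6.84 FPKM to 1.3, 0.324 and 0.426 FPKM. The serine and alanine transporter SLC1A4 fell by 1.01. Members that rose and members that fell stood side by side in this list in every line.

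Heat shock genes showed 7 of 26 members up and 2 down, with a median of 0.09, and those that rose included the constitutive chaperones HSPA9 (0.89), DNAJA1 (0.73) and CCT2 (0.65) and not the inducible HSPA1A and HSPA1B, which were listed at 0 in all libraries and are near-identical copies of each other. Oxidative stress genes showed 1 of 26 up, TXNRD1 (0.67), and 1 down, catalase, encoded by CAT (-0.63). Of 35 interferon genes, 1 rose and 6 fell, and of 17 inflammatory genes, 1 rose and 3 fell (17.1% and 17.6% lower, near the 15.5% of all genes).

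Immediate early genes, which serum or dissociation raise within minutes, were higher in set S for 15 of 31 members and lower for 3, with a median of 0.53. Those higher numbered 6 without clone 1 and 8 without clone 2. FOSB had 14.0, 17.9 and 21.4 FPKM in set F and 47.0, 61.1 and 66.6 FPKM in set S, a log2 difference of 1.66 (SE 0.081, limma adjusted p = 0.00329). FOS had 33.6, 70.6 and 84.4 FPKM in set F and 81.1, 139 and 140 FPKM in set S, and the orphan receptor NR4A1 rose by 1.38. EGR1, a zinc finger gene of the same response, went the other way, from 34.2, 102 and 73.4 FPKM to 24.6, 32.1 and 32.0 FPKM (log2 difference -1.09, limma adjusted p = 0.0206), and DUSP6, the phosphatase of ERK, fell by 0.46. FOSB did not overlap between sets, and FOS and NR4A1 overlapped because WT was lower than the clones.

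Of 30 targets of p53, 1 rose (PLK3, 0.47) and 13 fell, against 15.5% of all genes, with medians of -0.31 in WT, -0.33 in clone 1 and -0.31 in clone 2. Only 1 fell when clone 1 was left out and 3 when clone 2 was. DDB2, which recognizes damage by ultraviolet light, had 41.0, 59.2 and 60.4 FPKM in set F and 21.7, 33.9 and 33.5 FPKM in set S (log2 difference -0.83, limma adjusted p = 0.00437). The decoy receptor TNFRSF10C fell by 0.8, and BTG2 and CDKN1A, described above, were also on this list.

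Of 29 hypoxia genes, 2 rose and 11 fell, with a median of -0.37, and 2 fell without clone 1 and 1 without clone 2. The median was -0.14 in WT, -0.36 in clone 1 and -0.45 in clone 2, and -0.26 after the GC and length correction. The summed level of the list was higher in set S in each line, with 949.9, 1249 and 1341 FPKM in set F and 998.5, 1303 and 1427 FPKM in set S. ZNF395 had 30.3, 21.6 and 20.2 FPKM in set F and 10.5, 4.72 and 4.11 FPKM in set S (log2 difference -1.83, limma adjusted p = 0.00414), and the collagen hydroxylase P4HA2 (-0.89) and the adenylate kinase AK4 (-1.05) fell too. VEGFA, a target known for its role in vessel growth, had 18.8, 22.3 and 31.8 FPKM in set F and 18.5, 18.7 and 16.01 FPKM in set S and did not pass (log2 difference -0.4, limma adjusted p = 0.159). BHLHE40 rose by 1.12 and the glucose transporter SLC2A3 by 0.37.

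Glycolysis genes moved both ways, with 7 of 21 higher and 4 lower. The lactate transporter SLC16A1 rose (0.5) and its relative SLC16A3 fell (-0.59), and ENO2, the neuronal enolase, fell from 44.1, 62.3 and 64.2 FPKM to 13.9, 21.5 and 26.3 FPKM (log2 difference -1.45, limma adjusted p = 0.00329). Of 75 nuclear respiratory chain genes, 12 rose and 0 fell, with a median of 0.14 and cytochrome c, encoded by CYCS, the largest (31.0, 39.6 and 38.5 FPKM in set F and 59.0, 86.0 and 87.4 FPKM in set S). On the mitochondrial genome, MT-ND2 rose by 0.34 and MT-ND4 (-0.27), MT-ND5 (-0.66) and MT-ND6 (-1.04) fell. MT-ND6 is annotated on the opposite strand, directly next to MT-ND5, and the sources used here do not state whether counting used strand. Of 28 cholesterol synthesis genes, 7 rose, with SQLE (0.82) first by p, and 1 fell, TM7SF2 (-0.51). The lines differed, with medians of 0.49 in WT, -0.17 in clone 1, where 10 members were higher in set S, and 0.18 in clone 2.

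Splicing factors had some of the largest changes among abundant genes, and their lists were written after that was seen. SRSF3, an SR protein that controls splicing and mRNA export, had 182, 108 and 103 FPKM in set F and 594, 561 and 610 FPKM in set S, 4.49 times as much on average (log2 difference 2.21, SE 0.16, limma adjusted p = 0.00414). The SRSF3 gene is annotated by GENCODE at chr6:36594353-36605600 (GRCh38, plus strand). SRSF2 had 80.6, 63.1 and 58.6 FPKM in set F and 224, 191 and 206 FPKM in set S, and TRA2B rose by 1.55. Of 21 SR proteins and their kinases, 9 rose and 2 fell, CLK3 (-0.56) and SRSF12 (-0.65).

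SFPQ, a core protein of paraspeckles, had 96.3, 56.9 and 62.8 FPKM in set F and 251, 237 and 232 FPKM in set S, and its partner PSPC1 rose by 1.64. For SRSF3 and SFPQ the lines lay nearly level in set S, and WT was highest in set F. Of 20 hnRNP genes, 11 rose, among them HNRNPAB (1.07), HNRNPM (0.85) and HNRNPH1 (0.75), and 1 fell, HNRNPL (-0.71). Several of these genes are known to produce noncoding isoforms with retained introns or poison exons, and the table gives 1 value per gene, so isoforms were not analysed here. Of 13 nuclear retained RNAs, 1 rose, SNHG1 (0.87), and 2 fell, MALAT1 (-0.56) and TUG1 (-0.41).

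For the question of maturation, hematopoietic transcription factors were higher in set S: of 29, 13 rose and 1 fell, with medians of 0.20 in WT, 0.40 in clone 1 and 0.30 in clone 2. Leaving out clone 1 or clone 2 left 2 and 3 that rose. RUNX1, the factor required for blood to emerge from endothelium, had 11.2, 29.1 and 32.1 FPKM in set F and 25.4, 55.6 and 58.8 FPKM in set S, a log2 difference of 0.96 (SE 0.091, limma adjusted p = 0.00462). LMO2, the bridging subunit of the TAL1 complex, had 141, 160 and 164 FPKM in set F and 237, 268 and 274 FPKM in set S, and the ETS factor ERG rose by 0.8. LMO2 did not overlap between the sets, while RUNX1 did, because WT of set S lay under the clones of set F. GATA1, the erythroid and megakaryocytic factor, had 7.68, 17.5 and 20.6 FPKM in set F and 8.9, 19.6 and 20.8 FPKM in set S and did not pass (0.12, SE 0.097, limma adjusted p = 0.39). MLLT3, a regulator of blood stem cells, fell by 0.61.

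Surface and signalling genes of blood rose for 5 of 30 members and fell for 2 (16.7% and 6.67%, against 12.5% and 15.5% of all genes). The kinase LYN had 18.0, 25.8 and 23.8 FPKM in set F and 32.4, 50.9 and 51.5 FPKM in set S, and VAV1 (0.65) and the progenitor antigen CD34 (0.44) rose as well, whereas the cytokine receptors CSF2RB (-0.84) and EPOR (-0.51) fell. SPN, which encodes CD43, the antigen of the first blood progenitors, had 6.19, 14.4 and 14.95 FPKM in set F and 11.3, 15.4 and 17.4 FPKM in set S and did not pass (0.36, SE 0.16, limma adjusted p = 0.144). Of 24 megakaryocyte genes, 6 rose and 1 fell, and FERMT3, the integrin activator kindlin-3, went from 60.4, 119 and 113 FPKM to 180, 250 and 258 FPKM (log2 difference 1.27, limma adjusted p = 0.00414). Of 16 myeloid genes, 2 rose, FCER1G (0.95) and LAPTM5 (0.67), and 0 fell. The share of myeloid genes that rose (12.5%) was that of all genes.

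More erythroid genes fell than rose. Of 31, 2 rose, CA2 (0.51) and UROD (0.31), and 9 fell, with a median of -0.16. The median was -0.06 in WT, where 15 members were higher in set S, -0.27 in clone 1 and -0.25 in clone 2. The list summed to 558.8, 1028 and 1197 FPKM in set F and to 528.7, 764.3 and 771.8 FPKM in set S, so the sums overlapped. HBE1, embryonic epsilon globin, had 36.6, 125 and 164 FPKM in set F and 24.4, 36.5 and 35.9 FPKM in set S, a log2 difference of -1.49 (SE 0.29, limma adjusted p = 0.0201), and the fall was -0.56 in WT, -1.74 in clone 1 and -2.16 in clone 2. The iron exporter SLC40A1 (-1.17) and ALAD (-0.73), the second enzyme of heme synthesis, fell in the same direction. Globin genes share sequence and the annotated span of HBE1 overlaps other globin genes, so their values are uncertain, and the globin chaperone AHSP was listed at 0 throughout. In these bulk samples, fewer cells of a type and less RNA per cell cannot be told apart.

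Of 40 endothelial genes, 12 rose and 2 fell, with a median of 0.06, which was 0.20 after the GC and length correction. Of these, 3 rose without clone 1 and 6 without clone 2. CLEC14A, a C-type lectin of endothelium, had 96.5, 57.3 and 54.4 FPKM in set F and 250, 128 and 132 FPKM in set S (log2 difference 1.26, limma adjusted p = 0.00329), and CALCRL, the adrenomedullin receptor, rose by 0.91. KDR, the main VEGF receptor, had 666, 489 and 434 FPKM in set F and 779, 541 and 590 FPKM in set S (log2 difference 0.27, SE 0.075, limma adjusted p = 0.0472). CD93 (-0.73) and SOX18 (-0.66) fell, and PECAM1 (0.02, limma adjusted p = 0.898) and CDH5 (0.05, limma adjusted p = 0.705) did not pass.

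Arterial and Notch genes were lower on balance, with 4 of 24 higher and 10 lower and a median of -0.25, which was -0.13 after the GC and length correction. The number lower was 4 without clone 1 and 6 without clone 2. DLL4, the Notch ligand of arteries, had 345, 271 and 258 FPKM in set F and 192, 152 and 148 FPKM in set S (log2 difference -0.82, SE 0.059, limma adjusted p = 0.00356). HES4, a Notch target, had 245, 295 and 337 FPKM in set F and 118, 116 and 111 FPKM in set S (log2 difference -1.33, limma adjusted p = 0.00414), and the chemokine receptor CXCR4 fell by 1.17. HES1, the better known Notch target, moved the other way, from 18.8, 22.8 and 19.6 FPKM to 52.8, 54.0 and 46.3 FPKM (log2 difference 1.28, limma adjusted p = 0.00356). None of the 3 genes DLL4, HES4 and HES1 overlapped between the sets. Of 15 venous and lymphatic genes, 4 rose, among them STAB1 (0.89), NRP2 (0.52) and EPHB4 (0.33), and 1 fell, FLT4 (-0.79).

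For the question of cell mix, the lists of other cell types are read against the 12.5% of all genes higher and the 15.5% lower. The share lower was far above that of all genes for epithelial and for heart and lateral mesoderm genes. It was less far above for pluripotency, neural and mesenchymal genes, and close to that of all genes for endoderm and hepatic genes. These shares were not tested, and the neural list was small. The summed levels of pluripotency and of heart genes, given below, did not fall with these shares. Of 19 epithelial genes, 0 rose and 9 fell, with a median of -0.82, and the summed level was 324.3 to 741.2 FPKM in set F and 267 to 332.1 FPKM in set S, so the sums overlapped. Members lower numbered 1 without clone 1, 3 without clone 2 and 14 without WT. The desmosome protein DSP had 16.3, 18.3 and 19.8 FPKM in set F and 6.91, 6.85 and 6.25 FPKM in set S (log2 difference -1.32, limma adjusted p = 0.00428), and SPINT1 (-1.49) and TFAP2A (-1.22) fell with it. CDH1, E-cadherin, had 0.92, 4.71 and 7.57 FPKM in set F and 0.158, 1.64 and 0.994 FPKM in set S, and EPCAM fell by 1.33. DSP was level across lines within each set, while CDH1 was highest in the clones of set F.

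Of 25 endoderm and hepatic genes, 2 rose, SOX17 (0.59) and HHEX (0.5), which are also endothelial genes, and 4 fell, among them AFP (-1.96) and FOXA3 (-0.83). Without the liver genes described above, 18 members were tested, and the same counts of 2 and 4 remained, with a median of -0.76 against -0.73. The median of the 25 genes was -0.31 in WT, -0.02 in clone 1 and -1.73 in clone 2, and -0.16 without the clone 2 pair, whose set S library had the lowest liver sum. Of 20 pluripotency genes, 4 rose, KLF4 (1.37), GDF3 (1.29), PODXL (0.84) and LIN28A (0.46), and 5 fell, among them CDH1 (-1.31), EPCAM (-1.33) and FGF2 (-0.68). CDH1 and EPCAM are also on the epithelial list. The pluripotency list summed to 214.7, 350.9 and 371.1 FPKM in set F and to 317.7, 409.8 and 420.6 FPKM in set S, higher in each line. POU5F1, which encodes OCT4, had 4.36, 2.18 and 5.33 FPKM in set F and 0.869, 2.28 and 0.911 FPKM in set S and did not pass (-1.07, SE 0.36, limma adjusted p = 0.0777). Of 9 neural genes, 1 rose, NES (0.43), and 2 fell, among them OTX2 (-1.04).

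Mesenchymal and smooth muscle genes showed 2 of 30 up, CDH11 (0.63) and S100A4 (0.52), and 7 down, with a median of 0.16 in WT against -0.33 in clone 1 and -0.27 in clone 2. TWIST1, a mesenchymal factor, had 14.8, 17.4 and 20.5 FPKM in set F and 7.57, 9.01 and 8.27 FPKM in set S (log2 difference -0.99, limma adjusted p = 0.00628), and ZEB1 (-0.66) and PDGFRA (-0.96) fell. COL1A1, fibrillar collagen, had 27.7, 200 and 193 FPKM in set F and 55.9, 195 and 206 FPKM in set S and did not pass (0.35, SE 0.2, limma adjusted p = 0.246). COL1A1 was higher in set S in WT and close to level in the clones, and TWIST1 was lower in each line. The summed level of the list was 3068 to 4024 FPKM in set F and 3769 to 3929 FPKM in set S.

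Of 22 heart and lateral mesoderm genes, 4 rose and 10 fell. The list summed to 262.9, 348.9 and 425.6 FPKM in set F and to 268.3, 420.1 and 422.3 FPKM in set S. MEF2C had 46.6, 41.2 and 41.8 FPKM in set F and 93.1, 82.6 and 78.1 FPKM in set S (log2 difference 0.95, limma adjusted p = 0.00414), and GATA6 (0.79) and NKX2-5 (0.58), both heart factors, rose. FOXC2 had 9.58, 11.2 and 11.4 FPKM in set F and 1.52, 4.26 and 4.4 FPKM in set S (log2 difference -1.49, limma adjusted p = 0.00845), and ISL1 fell by 1.27. The list thus split, with each of these genes moving in the same direction in all lines. Of 9 HOX genes, 2 rose, HOXB5 (0.64) and HOXB2 (0.34), and 0 fell.

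BMP target genes were among the lists with the highest share of members lower (50.0%), with 2 of 18 higher and 9 lower. BMP4, the ligand that induces mesoderm, had 23.4, 36.0 and 32.9 FPKM in set F and 7.01, 11.9 and 11.8 FPKM in set S, a log2 difference of -1.51 (SE 0.094, limma adjusted p = 0.00329). ID1, a direct target of SMAD1 and SMAD5, had 428, 427 and 412 FPKM in set F and 229, 241 and 279 FPKM in set S (log2 difference -0.76, limma adjusted p = 0.00564), and HEY1 fell by 0.68. ID2 rose by 0.38, and the secreted BMP regulator BMPER had 26.9, 50.1 and 60.2 FPKM in set F and 69.5, 170 and 173 FPKM in set S (log2 difference 1.53, limma adjusted p = 0.00329). MSX2 is a member of this list. For BMP4 and ID1 every library of set S was under every library of set F.

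Of 26 TGF-beta target genes, 4 rose, among them TGFB1 (0.42), and 5 fell, among them CDKN1A, SMAD3 (-0.79) and TGIF1 (-0.61). Of 17 WNT target genes, 5 rose and 1 fell. CCND1, cyclin D1, had 48.2, 91.2 and 78.5 FPKM in set F and 136, 187 and 217 FPKM in set S (log2 difference 1.32, limma adjusted p = 0.00414), LEF1 rose by 0.91, and NKD2, a feedback inhibitor, fell by 1.71. MYC is on that list as well. Of 17 ephrins and EPH receptors, a list written after EFNA3 and EPHB3 were seen, 1 rose, EPHB4, and 9 fell, among them EFNB3 (-1.11).

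Of 37 collagen and matrix genes, 2 rose, TIMP3 (0.8) and TIMP1 (0.46), and 8 fell. LAMA4, the laminin chain of endothelial basement membranes, had 14.1, 8.96 and 10.6 FPKM in set F and 3.07, 2.5 and 2.68 FPKM in set S (log2 difference -1.69, limma adjusted p = 0.00414), and perlecan, encoded by HSPG2 (-0.6), and LAMA5 (-0.86) fell with it. The median of the list was near 0 in WT (0.0013) and -0.32 and -0.54 in the clones. Of 37 lysosome and autophagy genes, a list also written after values were seen, 2 rose and 11 fell, among them TFEB (-1.32), the factor that controls lysosome genes, with 9.81, 7.88 and 8.03 FPKM in set F and 3.82, 2.44 and 2.34 FPKM in set S, the proton pump subunit ATP6V0A1 (-0.81) and the protease CTSZ (-0.59).

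Whether the set difference was the same in MSX2-/- as in WT was tested with an interaction of genotype and set, which has 1 residual degree of freedom. By limma, 0 of 15895 genes (0.0%) passed an adjusted p of 0.05, with a smallest adjusted p of 0.118, and 1462 had an unadjusted p under 0.05. When testing was limited to genes whose mean reached 5 FPKM, 7 passed. The 5 genes with the lowest p were AL137798.3, C8orf37-AS1, RNU1-129P, COX17P1 and SNRPGP10, noncoding RNAs or pseudogenes of which 4 were listed at 0 in WT of set F and at 47.6 to 202 FPKM in WT of set S. A p that misses the threshold does not show that the set difference was equal in the genotypes.

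Base composition and length accounted for little of the variance of the set difference, but the share of genes called lower rose with GC content. Over 13060 protein-coding genes, transcript GC content and length together accounted for 1.96% of the variance of the log2 difference, and the correlation with GC across genes, which are not independent, was -0.102. Genes called higher had a median GC content of 49.9% and those called lower 53%. The tenth of genes with the highest GC content had a median of -0.16, with -0.03 in WT, -0.17 in clone 1 and -0.23 in clone 2. Medians of the autosomes ran from -0.085 to 0.018.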

How the data were processed

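RNA-seq libraries of 6 samples were read from 1 table, in which the authors deposited FPKM values per gene, normalized to transcript length and library size. The submitters' processing notes list BWA, Bowtie, RSEM and hg19, while the series' design text names TopHat and Cufflinks, so the tool behind the values could not be settled. The table holds no read counts, so depth in reads is unknown and no counting intervals are given. The labels do not say that the sets were separate cultures, so p-values measure only the spread between these samples.

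Symbols on several lines (342) were represented by the line with the highest mean. Values were tested as log2(FPKM + 1) where the mean reached 0.5 FPKM, with limma 3.58.1 in R 4.3.3 (line and set as terms, mean-variance trend, Benjamini-Hochberg adjustment, threshold 0.05, 2 residual degrees of freedom). The pairs join libraries of the same line, WT with WT and each clone with itself. The difference between MSX2-/- and WT was tested as an interaction. The scripts were tested on simulated data.

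The gene lists and comparisons were chosen with earlier results of these data known. Named genes were the top 10 in each direction by difference, among called genes whose mean reached 5 FPKM with no overlap between sets, the 3 with the lowest p in each direction of each list, 15 fixed genes and the 5 with the lowest interaction p. ALB, MYBBP1A, NOP58, NPM1, FBL, NHP2, POLR1A, POLR1B, POLR1C, PODXL, UTP20, CANX and XBP1 were named after their values were seen. Coordinates come from GENCODE on GRCh38 by symbol (97.9% matched) and are not those of the authors' build. Promoter sequences come from RefSeq. Alternatives varied the block, pseudocount, filter, scaling, trend, pairs and a correction for GC content and length, the last and the endoderm list without liver genes being added after seeing the data. Some genes picked by these rules are not reported here.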

Additional observations from a re-analysis of the deposited data

Results flagged for a closer look

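Some results had one sign in WT and the opposite sign in both clones, and several of these values were close to 0. PECAM1 was lower in set S in WT (-0.24), level in clone 1 (0.01) and higher in clone 2 (0.3). Its difference between the clones and WT was 0.40 on the log2 scale. CDH5 was lower in WT (-0.16) and higher in clone 1 (0.22) and clone 2 (0.08), with a difference of 0.31. C8orf37-AS1 (-7.05) and SNRPGP10 (-2.72) were higher in set S in WT and lower in the clones, where C8orf37-AS1 did not pass 0.243 FPKM. None of these 4 genes passed the adjusted threshold of the limma interaction test. The medians of 5 lists also had opposite signs, with a difference of clones minus WT of -0.45 for mesenchymal and smooth muscle genes, -0.29 for cell cycle inhibitors, -0.43 for collagen and matrix genes, 0.17 for oxidative stress genes and 0.29 for nuclear retained RNAs. Some of these medians were close to 0, such as that of collagen and matrix genes in WT (0.0013). These differences between lists were not tested.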

How the results depend on the processing

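No gene called between the sets changed sign under any alternative, which says little. The block, trend and filter leave the fitted difference as it is. Each called gene had the same sign in every line, so leaving out a pair or changing the pseudocount could not reverse it. Only the rescaling and the GC and length correction could have changed a sign. When low FPKM were kept in, 0 genes passed in either direction, and 0 members of every list passed. Without the line block, which sets aside the pairing, 1393 genes were higher and 1719 lower, and the called members were 3 hematopoietic factors, 5 endothelial and 7 immediate early genes higher, and 3 epithelial, 6 p53 and 6 hypoxia genes lower. Leaving out 1 pair at a time gave 176 to 1498 genes higher and 205 to 1854 lower. By list it gave 2 to 13 hematopoietic transcription factors higher, 3 to 10 endothelial genes higher, 4 to 10 arterial and Notch genes lower, 1 to 14 epithelial genes lower, 1 to 12 DNA replication genes higher, 6 to 21 mitosis genes higher, 6 to 14 immediate early genes higher, 5 to 9 unfolded protein response genes higher, 1 to 11 p53 target genes lower, 1 to 9 hypoxia genes lower and 2 to 30 ribosome biogenesis genes higher. The GC and length correction gave 2608 higher and 2097 lower. With a filter at a mean of 5 FPKM, 7 genes passed the interaction, and it was not run without a clone because no residual degrees of freedom remain. Medians that changed sign by more than the spread between pairs were those of myeloid genes (-0.14 at a pseudocount of 0.1), of venous (-0.23), heart (0.012), pluripotency (0.052) and neural genes (0.40) with the filter at 5 FPKM, and of HOX genes (0.12, from -0.095 without clone 1) and nuclear retained RNAs (-0.22, against 0.14 without WT) without clone 2. Medians near 0 of venous, myeloid, inflammatory, WNT target, oxidative stress and histone genes, cell cycle inhibitors and nuclear retained RNAs also crossed 0 by less than that spread under other alternatives. PECAM1 ran from -0.12 without clone 2 to 0.15 without WT, CDH5 from -0.04 without clone 1 to 0.15 without WT, C8orf37-AS1 from -0.23 without WT to 3.34 without clone 1, and SNRPGP10 from -0.58 without WT to 0.81 without clone 2. The causes were not tested. Depth in reads is unknown, and with 3 pairs a missed threshold says little about small differences.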
